A study of Homo sapiens with 6 samples.

Results

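The Affymetrix Human Transcriptome Array 2.0 measures RNA in transcript clusters, groups of probes laid along 1 stretch of a chromosome and strand, and 41388 of the 65535 clusters in the deposited table carried no gene symbol in the platform annotation. That number of rows is a limit of some spreadsheet programs, so the array may hold further clusters, which were not analysed here. Here the unnamed clusters of chromosomes 13 and 16 were taken, by an identifier starting with TC13 or TC16 and no symbol, and there were 2210 of them, 1111 on chromosome 13 and 1099 on chromosome 16. RH30 is an alveolar rhabdomyosarcoma cell line, a tumor of cells arrested on the way to skeletal muscle, and all 6 cultures carried IκBα-SR, a super-repressor form of IκBα that keeps NF-κB out of the nucleus. The 3 MyoDΔ cultures came from 1 clone, number 29, selected after infection with an sgRNA against MyoD, the transcription factor that switches on muscle genes, and the 3 RH30-SR cultures were the labelled control. The labels did not say whether the control had received Cas9, so a property of this clone and the loss of MyoD cannot be told apart, and the error of each value is that between 3 cultures of a group. Differences are MyoDΔ minus RH30-SR on the log2 scale, with their standard error (SE) from the limma fit. A cluster was called higher or lower where its Benjamini-Hochberg adjusted p was below 0.05 over all 65535 clusters and its fold change exceeded 25%.

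MYOD1 itself (TC11000232) stood at 6.95, 7.16 and 6.90 in MyoDΔ cells, against 9.09, 9.50 and 9.43 in RH30-SR cells, a difference of -2.34 ± 0.12 (SE, n = 3 each). Array medians lay between 4.27 and 4.31, and arrays correlated at 0.994 to 0.997 within a group and at 0.989 to 0.992 between groups. All 10 myogenic markers exceeded the median cluster level of 4.29 in both groups, 2 of them called higher and 8 lower, and their mean was 7.02 to 7.06 in MyoDΔ cells, against 8.35 to 8.53 in RH30-SR cells. Of the markers of other cell types, 2 of 5 leukocyte, 2 of 5 endothelial, 4 of 5 epithelial and 1 of 4 adipocyte genes exceeded that level in either group. Fewer copies per cell and fewer cells carrying a transcript cannot be told apart in these bulk RNA samples.

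Unnamed clusters cover what an annotation leaves without a gene symbol, which can be long noncoding RNAs, pseudogenes, transfer RNA genes, unannotated ends of genes, or stretches with no transcript. Transfer RNAs, which carry amino acids to the ribosome, are made by RNA polymerase III from short genes, many of which exist in near-identical copies on several chromosomes. The platform annotation gave no position or sequence for these clusters, so none is shown for a member. The cluster numbers carried position. On chromosome 13 the numbers up to 437 followed genes of the plus strand and those from there to 902 followed genes of the minus strand, with 4 of 360 genes of known strand on the other side, and 550 of 553 genes matched to RefSeq (GRCh38.p14) stood in chromosomal order. On chromosome 16 the runs ended at 711 and 1364, with 2 of 532 genes on the other strand and 837 of 841 in order. By this order 296 members of chromosome 13 and 427 of chromosome 16 were placed, 291 and 420 of them with an ordered named gene on each side. The other 815 and 672 were numbered after the last gene in order and could not be placed.

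Chromosomes 13 and 16 were picked from this same contrast in an earlier look at the data, so the values and calls below describe them and no test was run on them. The unnamed clusters of chromosome 13 had a median difference of 0.0067, with an interquartile range of -0.065 to 0.09. Those of chromosome 16 had a median of -0.013, with an interquartile range of -0.088 to 0.073. Across 37657 unnamed clusters of the other autosomes the median was 0.0033, with an interquartile range of -0.08 to 0.087, and the medians of those 20 chromosomes ran from -0.023 on chromosome 19 to 0.013 on chromosome 8. Both chromosomes thus lay inside the range of the others. In rank from high to low among 22 autosomes chromosome 13 was number 5 and chromosome 16 number 20, each tied with others, and the medians are near the 2 decimals to which values were deposited. Leaving out RH30-SR replicate 1, 2 or 3 gave chromosome 13 a median of 0.0017, 0.028 and -0.0033. Clusters with 1 gene symbol leaned the same way on both chromosomes, with a median of 0.017 over 583 on chromosome 13 and -0.037 over 907 on chromosome 16. On the other autosomes their median was -0.0067 over 20269, of opposite sign to that of the unnamed clusters.

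The shift was not shared by all cultures of a group. After each cluster was centred on its mean over the 6 arrays, the medians of chromosome 13 were 0.0067, 0.0033 and 0.0067 in MyoDΔ cells, against -0.013, 0.03 and -0.03 in RH30-SR cells. Those of chromosome 16 were 0, -0.017 and -0.0017 in MyoDΔ cells, against 0.01, 0.022 and -0.01 in RH30-SR cells. In both sets RH30-SR replicate 2 was the highest array and RH30-SR replicate 3 was below replicate 1, and the groups overlapped. The other autosomes had 0.0033, -0.0033 and 0.0067 in MyoDΔ cells, against -0.0033, 0.018 and -0.02 in RH30-SR cells, with the same order among the RH30-SR arrays.

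**Figure D1:**
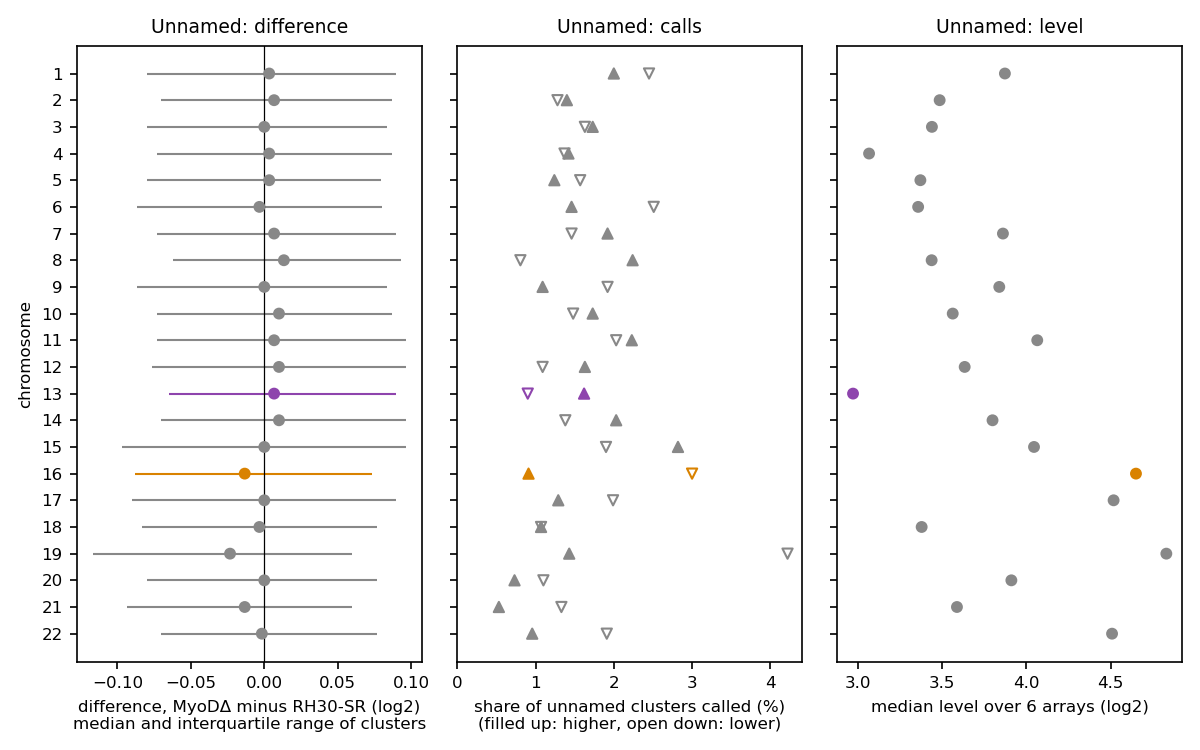
Unnamed clusters of each autosome (chromosome 13 purple, 16 orange). Left, the median difference, MyoDΔ minus RH30-SR (log2), with a line over the interquartile range; middle, the share called higher (filled) and lower (open), in percent; right, the median level over 6 arrays (log2). Medians of difference lie between -0.023 and 0.013, chromosome 16 has 3.0% lower and 0.91% higher, and chromosome 13 has 0.9% lower and 1.62% higher.

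Of the 1111 members of chromosome 13, 18 (1.62%) were called higher and 10 (0.9%) lower. Of the 1099 of chromosome 16, 10 (0.91%) were called higher and 33 (3.0%) lower. Over all clusters of the array 4.72% were called, 2.04% higher and 2.68% lower, and among unnamed clusters of the other autosomes 3.4% were called, 1.65% higher and 1.75% lower. For single chromosomes of the other autosomes the share called lower ran from 0.806% to 4.22%, and the share called higher from 0.531% to 2.82%. The groups did not overlap for 124 members of chromosome 13 that were higher (11.2%) and 71 that were lower (6.39%), and for 85 (7.73%) and 137 (12.5%) of chromosome 16, beside 11.9% higher and 12.4% lower of all clusters and 9.74% and 8.64% of the unnamed clusters of the other autosomes. All 71 called members had groups that did not overlap, which the call rule itself favours with 3 arrays per group. Of the 28 called members of chromosome 13, 14 were under 1.5-fold, and of the 43 of chromosome 16, 23. Some of these counts moved by more than 1.5 times when 1 array was left out. With MyoDΔ replicate 1, 2 or 3 left out, 8, 9 and 10 members of chromosome 13 were called higher, and 10 without RH30-SR replicate 1. On chromosome 16 the same 3 arrays left out gave 6, 4 and 3 higher and 19, 20 and 14 lower, and 15 were lower without RH30-SR replicate 3.

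Beside the pooled other autosomes, members of chromosome 13 were dim and those of chromosome 16 bright. The median level was 2.97 on chromosome 13 and 4.65 on chromosome 16, beside 3.70 on the other autosomes, and 24.1%, 55.8% and 38.1% of clusters exceeded the median of the whole array. Single chromosomes came near these values or past them, with 4.83 and 63.3% on chromosome 19, 4.52 and 56.1% on chromosome 17, and 3.07 and 26.2% on chromosome 4. Below a level of 4 the median difference was near 0 everywhere, at 0.0033 over 783 members of chromosome 13, 0.005 over 426 of chromosome 16 and 0 over 21099 of the other autosomes. Between 4 and 6 it was 0.013 on chromosome 13 and -0.027 on chromosome 16, and between 6 and 8 it was 0.04 over 63 members and -0.042 over 176. In rank from high to low among 22 autosomes, chromosome 16 was number 6 below 4, number 22 between 4 and 6, number 20 between 6 and 8 and number 17 from 8 up, and chromosome 13 was number 7, 3, 5 and 4. From 8 up both were above 0, at 0.09 over 19 members of chromosome 13 and 0.015 over 74 of chromosome 16, beside 0.065 on the other autosomes. Within a group the spread was alike, with a median SD of 0.085 in MyoDΔ and 0.104 in RH30-SR cells on chromosome 13, and of 0.087 in MyoDΔ and 0.104 in RH30-SR cells on chromosome 16.

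**Figure D2:**
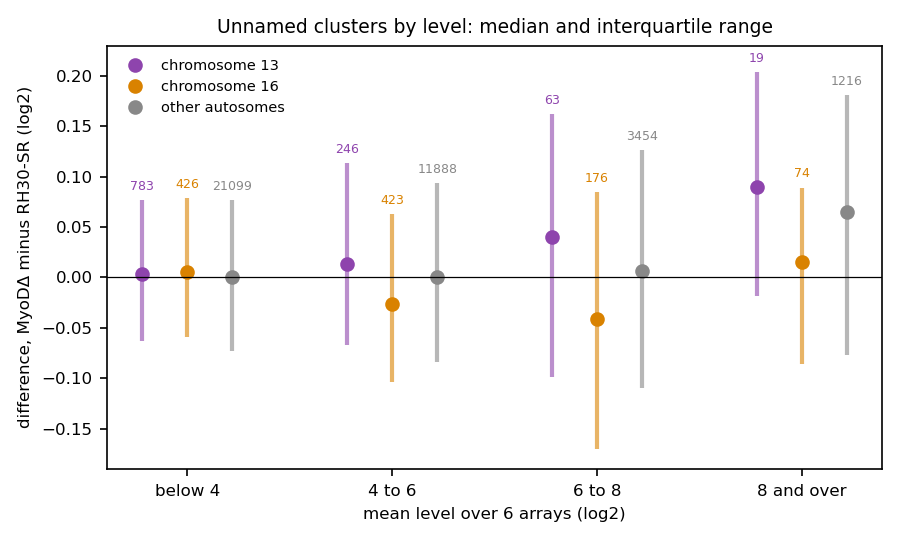
Difference, MyoDΔ minus RH30-SR (log2), of unnamed clusters by their mean level over 6 arrays (log2), for chromosome 13, chromosome 16 and the other autosomes. Points are medians, lines span the interquartile range, and the number of clusters stands above each line. Chromosome 16 lies below 0 between 4 and 8, and chromosome 13 above 0 in each class.

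Along the chromosomes the sign changed often. In 22 windows of 50 consecutive members (the last window of each chromosome holds more), chromosome 13 ran from -0.023 to 0.045, with 7 windows below 0 and 15 above. In 21 windows chromosome 16 ran from -0.063 to 0.04, with 15 below 0 and 6 above. Its lowest window was the first, numbers 5 to 187 between MPG and MIR3180-4 at the start of the plus-strand run, with 4 members called lower and none higher. It takes in the group of tRNA genes between CASP16P and OR1F1. CREBBP, a histone acetyltransferase gene, separated 56 placed members with a median of -0.058 before it from 370 with a median of -0.017 after it. PALB2, a partner of BRCA2 in DNA repair, divided 156 with -0.043 from 271 with 0.013. Splits at other landmark genes differed, with -0.022 before and -0.02 after TSC2, -0.023 and 0.005 at CYLD, and -0.023 and 0.037 at MAF. CYLD, a deubiquitinase gene, was itself called higher, at 6.29, 6.34 and 6.29 in MyoDΔ cells, against 5.90, 5.79 and 5.92 in RH30-SR cells (0.44 ± 0.06). The member numbered next after CYLD, TC16000444, averaged 9.46 in MyoDΔ and 9.30 in RH30-SR cells and was not called. CDH11, a cadherin gene, was called lower (-0.77 ± 0.05), and the members numbered next to it, TC16001164 and TC16001166, were dim and not called.

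On chromosome 13 the placed members were split at landmark genes in the same way. Before RB1, the retinoblastoma gene, 146 had a median of 0.012 and after it 150 had 0.0067. Before LIG4, a DNA ligase gene, 267 had 0.01 and after it 28 had -0.023. FOXO1, the chromosome 13 partner of the PAX3-FOXO1 fusion of this tumor type, stood at 6.62, 6.65 and 6.56 in MyoDΔ cells, against 6.31, 6.33 and 6.38 in RH30-SR cells (0.27 ± 0.05), which was below the fold threshold. None of the 8 placed called members of chromosome 13 and 19 of chromosome 16 had a called gene as its nearest ordered named gene on either side. Of all clusters with 1 symbol, 5.15% were called on chromosome 13 and 7.06% on chromosome 16, so few called neighbours would be met for any members. Called members were next to each other in number in 1 pair on chromosome 13, TC13001005 and TC13001006, and in 2 on chromosome 16, TC16000992 with TC16000993 and TC16001600 with TC16001601. TC16000992 and TC16000993 held the same values on all 6 arrays, as did TC16000301.

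**Figure D3:**
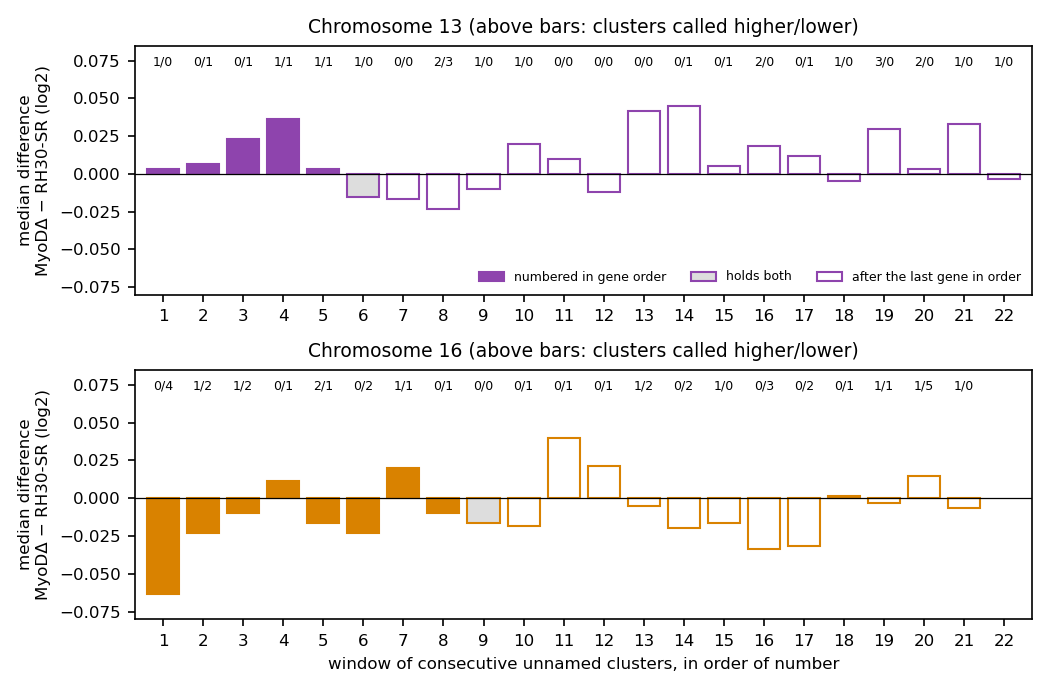
Median difference, MyoDΔ minus RH30-SR (log2), in windows of 50 consecutive unnamed clusters in order of number, on chromosome 13 (top, 22 windows) and chromosome 16 (bottom, 21 windows; the last holds 99). Filled bars hold members numbered in gene order, open bars those after it, and the pairs above are clusters called higher and lower. The lowest bar is the first of chromosome 16, at -0.063.

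The largest falls were taken among called members whose higher group mean exceeded the array's median level, so a dim cluster could enter through the group where it was high. TC13001283, which could not be placed, stood at 2.93, 2.74 and 2.72 in MyoDΔ cells, against 4.46, 4.16 and 4.69 in RH30-SR cells (-1.64 ± 0.13) and entered only through its RH30-SR mean of 4.44, its mean over all arrays being 3.62. TC13001001, also unplaced, was at 5.49, 5.33 and 5.55 in MyoDΔ cells, against 6.93, 6.74 and 6.89 in RH30-SR cells (-1.40 ± 0.08). Both differences were several times the spread within either group, which the choice of the largest called falls favours. TC13000386 was at 4.52, 4.54 and 4.01 in MyoDΔ cells, against 5.37, 5.27 and 5.67 in RH30-SR cells (-1.08 ± 0.17). It lay between MYO16, an unconventional myosin gene (0.0067), and the noncoding LINC00676 (0.073), neither called, in a stretch where RefSeq lists 11 further genes without a cluster symbol, all lncRNAs. The next number below it, TC13000385, was the brightest member of chromosome 13 and was not called, with means of 11.70 in MyoDΔ and 11.65 in RH30-SR cells. TC13000630 was at 8.92, 8.97 and 8.92 in MyoDΔ cells, against 9.38, 9.51 and 9.59 in RH30-SR cells (-0.56 ± 0.07). It lay between KCTD4 (0.24) and TPT1 (0.017), which encodes an abundant tumor-associated protein, with 2 RefSeq lncRNA genes between them. TC13000535 (-0.40 ± 0.09) and TC13001345 (-0.39 ± 0.07) completed the falls.

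The 6 largest rises of chromosome 13 were between 0.63 and 0.84, all under 2-fold. TC13001533 was at 4.86, 5.08 and 5.19 in MyoDΔ cells, against 4.17, 4.05 and 4.40 in RH30-SR cells (0.84 ± 0.12). TC13001513 was at 5.53, 5.68 and 5.49 in MyoDΔ cells, against 4.68, 4.77 and 4.76 in RH30-SR cells (0.83 ± 0.07). TC13001632 (0.78 ± 0.09), TC13001558 (0.77 ± 0.13) and TC13001682 (0.73 ± 0.13) were also unplaced. The placed one, TC13000716, was at 6.40, 6.23 and 6.28 in MyoDΔ cells, against 5.68, 5.48 and 5.87 in RH30-SR cells (0.63 ± 0.10). It lay between HNRNPA3P5, a pseudogene, and PCDH9, a protocadherin gene, which was low in both groups and not called (0.02 ± 0.06).

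The 6 falls of chromosome 16 chosen in this way lay between -1.77 and -0.81. TC16001706, unplaced, was at 6.60, 6.61 and 6.62 in MyoDΔ cells, against 8.25, 8.50 and 8.40 in RH30-SR cells (-1.77 ± 0.07), a 3.42-fold fall and the largest of all members. TC16000947 was at 7.79, 8.01 and 7.84 in MyoDΔ cells, against 9.23, 9.55 and 9.48 in RH30-SR cells (-1.54 ± 0.10). TC16001496 was at 6.96, 6.86 and 6.74 in MyoDΔ cells, against 8.17, 8.11 and 8.17 in RH30-SR cells (-1.30 ± 0.07). In these clusters every MyoDΔ array was more than 1 unit below every RH30-SR array. The neighbours TC16001600 and TC16001601 fell by like amounts from different levels. TC16001600 was at 4.57, 4.57 and 4.51 in MyoDΔ cells, against 5.37, 5.38 and 5.33 in RH30-SR cells (-0.81 ± 0.05), and TC16001601 at 8.07, 7.95 and 8.01 in MyoDΔ cells, against 8.89, 8.88 and 8.83 in RH30-SR cells (-0.86 ± 0.05).

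Among the rises of chromosome 16, TC16002011 was at 5.72, 6.10 and 6.13 in MyoDΔ cells, against 4.91, 4.94 and 5.10 in RH30-SR cells (1.00 ± 0.12). TC16000392 and TC16001068 held the same values, 5.05, 4.88 and 4.79 in MyoDΔ cells, against 3.92, 2.70 and 3.90 in RH30-SR cells (1.40 ± 0.31). Their RH30-SR replicate 2 stood 1.2 below the other RH30-SR arrays, and with 1 array left out at a time they kept the call in 1 of 6 fits. They lay beside immunoglobulin variable segments that are found on chromosome 16 away from the antibody locus, IGHV2OR16-5 and IGHV3OR16-7. TC16000392, TC16001068 and TC16001664 (0.91 ± 0.17) had mean levels of 4.21, 4.21 and 3.93 and entered only through their MyoDΔ means. TC16000276 between LCMT1P1 and LCMT1 was at 0.62 ± 0.13 and TC16001920 at 0.54 ± 0.06.

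**Figure D4:**
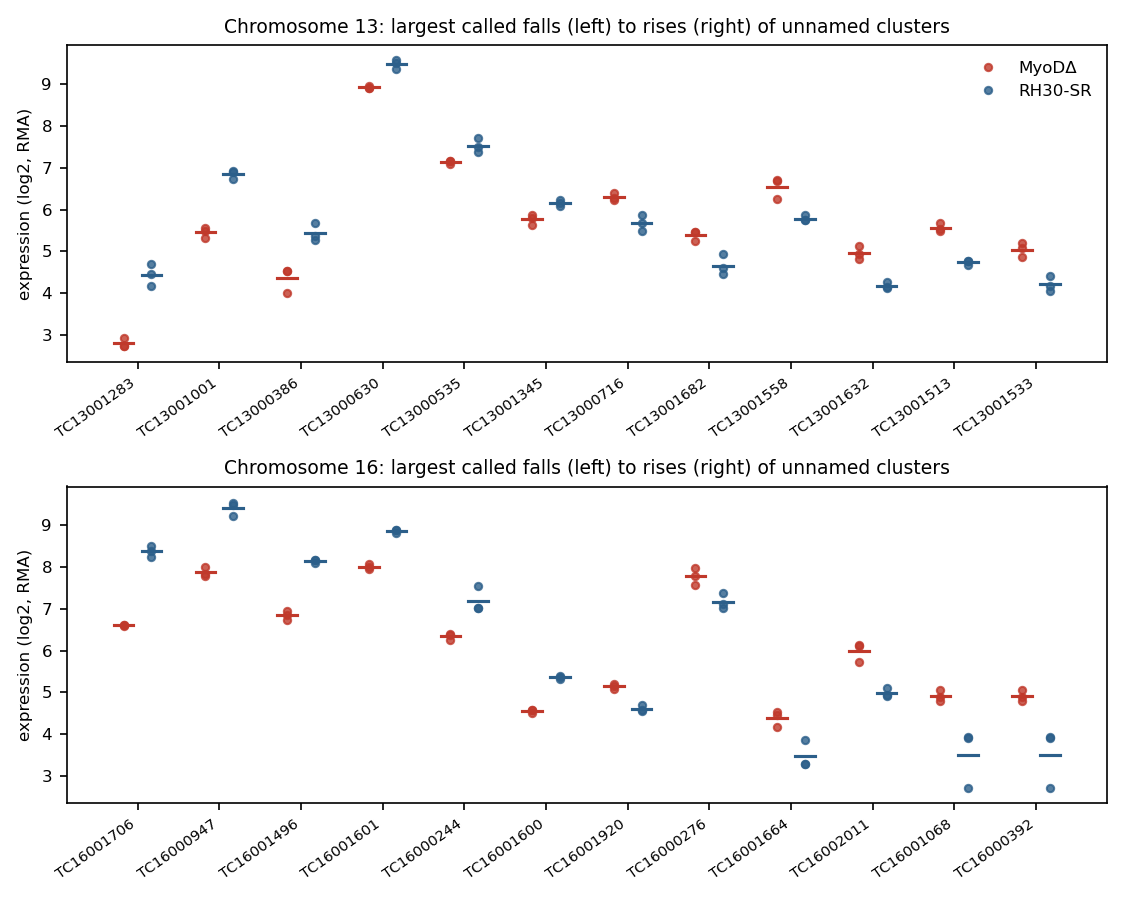
Expression (log2, RMA) on each array of the 6 largest called falls and 6 largest called rises of unnamed clusters whose higher group mean exceeds the array's median level, on chromosome 13 (top) and chromosome 16 (bottom). Points are arrays, MyoDΔ left and RH30-SR right within each cluster, and lines are means (n = 3 each). Clusters whose groups overlap were left out by the choice, and TC16000392 and TC16001068 hold the same values.

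The brightest members changed little. TC16001826 was the brightest of all, at 12.44, 12.59 and 12.63 in MyoDΔ cells, against 12.41, 12.11 and 12.50 in RH30-SR cells, with overlapping groups. TC16000644, TC16001556 and TC16001389 differed by -0.017 to 0.057 at levels from 11.00 to 12.05, and on chromosome 13 TC13001355 and TC13001204 differed by 0.067 and -0.05. TC13000746, at 11.05, 10.99 and 10.99 in MyoDΔ cells, against 10.83, 10.68 and 10.76 in RH30-SR cells, did not overlap but stayed under the fold threshold at 1.19-fold. Typical members with a level of at least 6 were those nearest the median of such members on their chromosome (0.067 over 82 on 13, -0.023 over 250 on 16). On chromosome 13 they were TC13000014, at means of 6.66 in MyoDΔ and 6.60 in RH30-SR cells, and TC13001318, at 9.06 in MyoDΔ and 9.0 in RH30-SR cells. On chromosome 16 they were TC16000232 and TC16000233, at 8.45 in MyoDΔ and 8.47 in RH30-SR cells. These hold 1 profile, which 11 of the 250 share. At the fold threshold TC13001093 was just inside at 1.25-fold and TC13001025 just outside at 1.24-fold, and TC16000296 lay inside at -0.33 and TC16000915 outside at -0.32.

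Some members did not carry a measurement of their own. Of the 1099 members of chromosome 16, 62 (5.64%) held values identical on all 6 arrays to those of at least 1 other cluster, against 10 of 1111 (0.9%) on chromosome 13 and 2.84% on the other autosomes. A set of 11 clusters lay wholly on chromosome 16, all at a mean of 8.45 in MyoDΔ and 8.47 in RH30-SR cells, among them TC16000232, TC16000233 and TC16000950 to TC16000957. Counted once per profile, the 43 called members of chromosome 16 were 37, 9 higher and 28 lower, and the 28 of chromosome 13 stayed 28. Whether such clusters share probes was not tested.

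Of the 14 members of chromosome 16 that were called lower and had an ordered named gene on each side, 9 had transfer RNA genes for neighbours. This grouping and the clusters it names were chosen after the values had been seen. It used the 291 members of chromosome 13 and 420 of chromosome 16 that had an ordered named gene on each side, and asked whether RefSeq lists a tRNA gene between these flanking genes. The gene table gives no strand, so a tRNA gene counts for both strands, and the cluster beside it need not measure it. On chromosome 16, 53 members lay in 18 such intervals holding 26 tRNA genes, with a median difference of -0.10, and 9 of the 53 (17.0%) were called lower and none higher. The 9 became 4 without MyoDΔ replicate 1, 3 without MyoDΔ replicate 3, 15 and 4 when RH30-SR replicate 1 or 3 was left out, and 4 with 1 cluster kept per identical profile over the whole array. The 367 members without a tRNA gene in the interval had a median of -0.017, with 5 (1.36%) called lower and 3 higher. Members beside tRNA genes were brighter, with a median level of 5.19, against 4.72 without. Calls were more frequent among brighter clusters, at 1.02% of unnamed clusters of the other autosomes below 4 and 10.4% between 6 and 8. The shares were not compared at matched levels. On chromosome 13, 7 members lay beside 4 tRNA genes, with a median of -0.40 and 1 called lower and 1 higher, and the 284 others had a median of 0.0067, with 3 called lower and 3 higher.

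The other autosomes leaned the same way. Of 849 placed unnamed clusters beside tRNA genes there, 107 (12.6%) were called lower and 11 (1.3%) higher, with a median of -0.08, and of 15654 without, 186 (1.19%) were called lower and 184 (1.18%) higher, with a median of 0.0067. Their median level was 4.72 beside tRNA genes and 3.64 without. Chromosome 8 could not be placed and was left out of these counts. Without the tRNA intervals the share of placed members called lower was 1.36% on chromosome 16, 1.06% on chromosome 13 and 1.19% elsewhere. On chromosome 16 the grouping was chosen with the calls known and held 9 of the 14 called lower. Leaving it out therefore had to lower that share, and what the tRNA intervals account for was not tested. These shares leave out the unplaced members, of which 19 of 672 (2.83%) were called lower and 5 (0.744%) higher on chromosome 16, and 6 of 815 (0.736%) lower and 14 (1.72%) higher on chromosome 13. Intervals with other kinds of gene did not stand out in this way on chromosome 16, where 2.78% of members beside snoRNA or snRNA genes, 3.75% beside miRNA genes, 2.9% beside lncRNA genes and 3.9% beside pseudogenes were called lower, beside 3.33% of all placed members, and one member can count under several kinds. The tRNA counts repeat clusters that share a profile, and counted once per profile they were 6 lower of 48 on chromosome 16 and 73 lower and 8 higher of 708 elsewhere. Leaving out 1 array moved the 107 to between 51, without MyoDΔ replicate 3, and 142, without RH30-SR replicate 1, with 57 and 68 without MyoDΔ replicates 1 and 2, and 70 and 53 without RH30-SR replicates 2 and 3.

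Members beside tRNA genes that shared their values with other clusters mostly had negative differences. All 14 of chromosome 16, which held 9 profiles, were below 0, with a median of -0.60 over members. Of these, 6 were called lower, holding 3 profiles, and TC16000486 and TC16001138 shared values only with each other. All 4 of chromosome 13 were below 0, with a median of -0.40 and 1 called lower. The 39 members of chromosome 16 with a profile of their own had a median of -0.033. On the other autosomes 179 of 223 clusters with shared values beside tRNA genes were below 0 and 44 above, with a median of -0.34. There 51 were called lower and 4 higher. Away from tRNA genes, the 47 members of chromosome 16 with shared values had a median of -0.023, with 37 below 0. These counts repeat profiles, and 11 of the 47 held 1 profile, at -0.023. The 3 called lower held 1 profile and the 2 called higher another. The 4 of chromosome 13 had a median of 0.17, all above 0. On the other autosomes 766 such clusters had a median of 0.032, with 425 above 0 and 341 below. All these clusters were read on the same 3 cultures per group and can shift together by array, so the counts are not independent. RH30-SR replicate 2 was the highest RH30-SR array in TC16000244 (7.55, against 7.02 and 7.02) and TC16000112 (5.88, against 5.29 and 5.73). It was not the highest in TC16000732 and TC16000110.

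**Figure D5:**
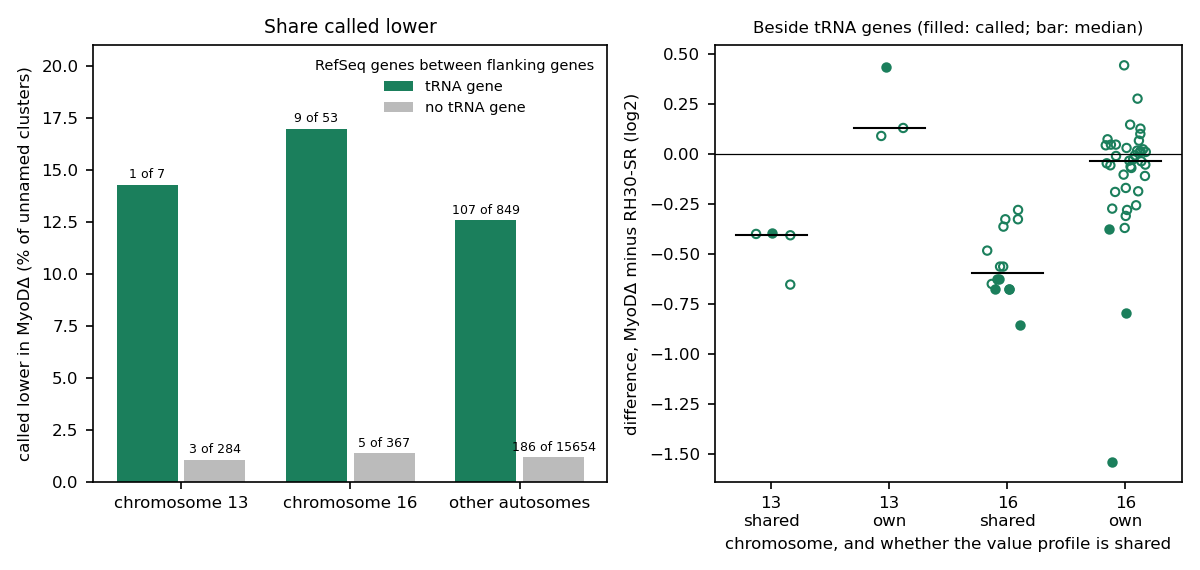
Left, percent of placed unnamed clusters called lower in MyoDΔ cells where RefSeq lists a tRNA gene between the flanking named genes (green) and where it does not (grey), on chromosome 13, chromosome 16 and the other autosomes, with counts above the bars. Right, the difference, MyoDΔ minus RH30-SR (log2), of each member beside tRNA genes by chromosome and by whether other clusters hold the same values. All 4 and 14 members with shared values lie below 0.

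The largest fall beside tRNA genes and the next one were at leucine tRNA genes. Between EEF2K, the kinase of elongation factor 2 (-0.20), and POLR3E, a subunit of RNA polymerase III (-0.22), RefSeq lists 1 gene without a cluster symbol, the leucine tRNA gene TRL-AAG2-4. TC16000244, the member there, was at 6.26, 6.40 and 6.37 in MyoDΔ cells, against 7.02, 7.55 and 7.02 in RH30-SR cells (-0.85 ± 0.14), and unnamed clusters of chromosomes 5, 6 and 14 held the same values. In minus-strand order the interval from PDZD9 to CDR2 holds TRL-TAG3-1 and the same TRL-AAG2-4 beside 6 other genes. Its member TC16000947 is the largest placed fall given above. CDR2 was not called (-0.31). The pair TRL-CAG2-1 and TRL-CAG2-2 lies between ARL2BP and CCL22 in plus-strand order and between PLLP and CIAPIN1 in minus-strand order. TC16000486 and TC16001138, the members of these intervals, held the same values, 6.73, 6.75 and 6.53 in MyoDΔ cells, against 7.14, 7.40 and 7.35 in RH30-SR cells (-0.63 ± 0.09).

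The largest group of tRNA genes lay near the start of chromosome 16. RefSeq lists 11 between CASP16P and OR1F1 in plus-strand order. Between ZNF205-AS1 and ZNF200 in minus-strand order it lists 14, which include the same 11. The strand of the tRNA genes themselves was not given. The 14 include arginine, proline and lysine tRNA genes such as TRR-CCT3-1, TRP-TGG3-3 and TRK-CTT3-1. Of 13 members in the plus-strand interval 10 were below 0 and 2 were called lower, and of 7 in the minus-strand interval 6 were below 0 and 1 was called lower. TC16000106, TC16000111 and TC16000810 were the called ones and held 1 profile, 6.23, 6.27 and 5.95 in MyoDΔ cells, against 6.66, 7.0 and 6.81 in RH30-SR cells (-0.67 ± 0.12), which clusters of chromosomes 5 and 14 also held. TC16000112 and TC16000809 shared theirs with clusters of chromosomes 1, 6, 7, 11 and 14 and were not called (-0.56 ± 0.16). Glycine tRNA genes TRG-GCC3-1, TRG-GCC2-4 and TRG-GCC2-5 lay beside VAC14. In plus-strand order 3 of the 5 members there were below 0 and 1, TC16000584, was called lower. It was at 7.24, 7.10 and 7.14 in MyoDΔ cells, against 7.47, 7.58 and 7.56 in RH30-SR cells (-0.38 ± 0.06). In minus-strand order all 3 members were below 0 and none was called. The intervals described here and below were those with a called fall, and the other tRNA intervals of chromosome 16 held no called member. Among these, TC16000732 beside TRG-CCC2-2 was at -0.65 ± 0.15 and TC16001331 beside TRM-CAT6-1 at 0.44 ± 0.17. Between CALB2 and CHST4 the 2 members, beside TRM-CAT2-1, were at 0.023 and 0.043.

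On chromosome 13 the member beside an asparagine tRNA gene, TRN-GTT2-4, was TC13000535, at 7.16, 7.16 and 7.09 in MyoDΔ cells, against 7.38, 7.71 and 7.51 in RH30-SR cells. Clusters of chromosomes 1 and 17 held the same values. Those beside glutamate tRNA genes, TC13000598 at TRE-TTC1-2 (-0.41 ± 0.14) and TC13000625 at TRE-TTC2-1 (-0.40 ± 0.10), were of like size and not called, and TC13000167, beside TRE-TTC2-1 in the plus-strand order, was at 0.09 ± 0.08. Beside the phenylalanine tRNA gene TRF-GAA1-5 the members differed in sign. TC13000790, with a profile of its own, was called higher, at 4.13, 4.09 and 4.05 in MyoDΔ cells, against 3.63, 3.68 and 3.65 in RH30-SR cells (0.44 ± 0.05), and TC13000792, which shares its values with clusters of chromosomes 6, 11, 12 and 19, was not called (-0.65 ± 0.16).

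One called member stood within 2 numbers of clusters named for miRNA genes, whose mature sequences are shown to identify these neighbours. TC16000173 was at 4.83, 5.13 and 4.46 in MyoDΔ cells, against 5.45, 5.73 and 5.62 in RH30-SR cells (-0.79 ± 0.16). The next numbers were MIR193B and MIR365A, which are encoded close together on the plus strand of chromosome 16, and RefSeq lists the threonine tRNA gene TRT-CGT2-1 and the host gene MIR193BHG in the same interval. The mature sequences from RefSeq (GRCh38.p14) follow 5′ to 3′, with the seed, bases 2 to 8, in capitals, and no 2 seeds are the same.
hsa-miR-193b-5p: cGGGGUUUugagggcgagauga
hsa-miR-193b-3p: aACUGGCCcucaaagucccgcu
hsa-miR-365a-5p: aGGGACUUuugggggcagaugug
hsa-miR-365a-3p: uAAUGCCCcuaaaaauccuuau
The cluster of MIR193B differed by -0.09 ± 0.06 and that of MIR365A by -0.06 ± 0.12, and neither was called. RefSeq also lists miRNA genes without a cluster symbol in the intervals of the called members TC13000716, TC16000301, TC16000992 and TC16000993, whose sequences are not shown.

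The remaining called members were dimmer or smaller changes. Both group means lay under the array's median in 10 of the 28 called members of chromosome 13 and in 5 of the 43 of chromosome 16. The largest of these was TC13001423, at 2.31, 2.36 and 2.12 in MyoDΔ cells, against 3.76, 3.79 and 4.09 in RH30-SR cells (-1.62 ± 0.11). TC13001005 (-0.82 ± 0.08) and TC13001006 (-0.61 ± 0.08) were also lower, and TC13000507 (0.60 ± 0.08) and TC13000087 (0.57 ± 0.08) higher. Past 2-fold there were 4 falls and no rise on chromosome 13, and 3 falls and 2 rises on chromosome 16, the 2 rises being 1 shared profile.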

How the data were processed

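Total RNA of 3 MyoDΔ and 3 RH30-SR cultures was hybridised to Affymetrix Human Transcriptome Array 2.0 arrays, which have 1 colour. Each transcript cluster has 1 deposited value per array, a log2 expression to 2 decimals that the authors made with RMA in Affymetrix Expression Console per the submitters' processing notes; RMA corrects background, makes the arrays' distributions alike by quantile normalization and summarises probes. Versions, genome build and annotation release are not given in the sources used here. A shift of all clusters would be removed by this normalization, so differences are relative to the bulk of clusters. A second deposited table had 6 columns of values that could not be tied to a sample and was not used. Gene symbols came from the platform annotation, with 22758 clusters of 1 symbol and 1389 of several.

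Groups were compared in limma 3.58.1 (R 4.3.3; lmFit and eBayes) without covariates over all 65535 clusters, with Benjamini-Hochberg adjustment and the thresholds of the study's methods (adjusted p 0.05, fold 25%). Summaries used python 3.11.15 and pandas 2.3.3. Members, lists and tests were chosen with earlier results of these data known. On simulated data for this comparison, over 65535 clusters, 17 of 68 clusters changed by 0.4, 65 of 66 changed by 1 and 66 of 66 changed by 2 (log2) were called, with 7 false among 155 calls. Only those clusters were changed, while 4.72% of clusters were called in the data. Noise was drawn independently for each value, so shared profiles and shifts common to an array were not simulated, and recovery in the data can differ. The number of arrays limits the precision.

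Per chromosome, the clusters named were the 6 largest called rises and 6 largest called falls with a higher group mean above the median level and groups that do not overlap, the 4 highest levels, the 2 with a level of at least 6 nearest that chromosome's median, and 1 on each side of the fold threshold; called members under the median level, members beside tRNA or miRNA genes and shared profiles were added after their values were seen. RefSeq (GRCh38.p14) served only for names, order of genes and what lies between them; on the other autosomes, 17708 of 17904 genes stood in order, and 46 of 12850 were on the other strand. Replicate numbers were given by the labels and do not state a pairing. Alternatives covered normalization, a filter on dim clusters, moderated and weighted fits, the thresholds, the replicate number as a block and leaving out each array.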

Additional observations from a re-analysis of the deposited data

How the results depend on the processing

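All differences here are MyoDΔ minus RH30-SR on the log2 scale. The median of chromosome 13 unnamed clusters (0.0067) depended on single arrays: leaving out 1 array at a time gave -0.0033 to 0.028, the lowest without RH30-SR replicate 3 and the highest without RH30-SR replicate 2. It was 0 after median centring, 0.028 over clusters above the median level and 0.021 with array weights. The median of chromosome 16 stayed between -0.023 and -0.005. The other autosomes' median (0.0033) was -0.0033 after median centring and 0.010 with array weights, and -0.0067 to 0.013 with 1 array left out.

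With 1 array left out at a time the counts of calls were 8 to 12 higher and 7 to 14 lower on chromosome 13 and 3 to 9 higher and 14 to 29 lower on chromosome 16. At an adjusted p below 0.01 they were 6 higher and 6 lower on chromosome 13, and 3 higher and 10 lower on chromosome 16. With the adjusted p alone 16 members of chromosome 16 were called higher. With the replicate number as a block, 20 members of chromosome 16 were called lower; arrays of the same number had correlations of -0.049, -0.037 and 0.034 in their deviations, so the samples share only a number.

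Beside tRNA genes, leaving out 1 array gave a median of -0.16 to -0.097 and 3 to 15 calls lower on chromosome 16, and -0.10 to -0.062 with 51 to 142 calls lower on the other autosomes. Over clusters above the median level the medians were -0.23 on chromosome 16 and -0.21 on the other autosomes. With 1 cluster kept per identical profile over the whole array, an alternative chosen after seeing the data, which can keep the copy on another chromosome, the medians were -0.035 and -0.05, and the calls lower 4 and 70. At an adjusted p below 0.01 the calls lower were 3 and 39.

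Over the named clusters, 537 alternative values kept their side of the threshold, 85 lost the call, 7 gained one and none reversed. The 537 include values of clusters that were not called to begin with. Leaving out 1 array at a time lost the call for 6 to 11 of the 26 called named clusters. An adjusted p below 0.01 lost it for 13 of the 26. TC16000392, TC16001068, TC13000535 and TC13001093 kept the call in 1 of 6 fits with 1 array left out, and TC16000296 in none. Another background correction could not be run because no probe intensities were used, and the second deposited table was not run because its columns are not tied to samples. The cause of these changes was not tested.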
